A study of Papio anubis with 40 samples.

Results

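Plasma microRNAs were compared between 15 months after the induction of endometriosis and the time before it in the same 8 olive baboons (Papio anubis). Libraries were taken by their labelled time point, month 15 (8 libraries) and month 0 (8 libraries), which are 16 of the 40 libraries of the series. All 8 animals were inoculated after the month 0 bleed with menstrual tissue placed in the peritoneal cavity by laparoscopy, and every sample is labelled as having had no treatment. Each library came from 0.5 mL of plasma, although the series text speaks of serum. Ages are not stated in the labels. All samples analysed come from inoculated animals, so a longer time after inoculation, an older animal and a different time in storage cannot be told apart. The table has 2731 microRNA rows under human names; of these 598 had a count at month 15 or month 0, and 318 passed a filter on low counts and were tested.

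MicroRNAs are short RNAs cut from hairpin precursors; either side of the hairpin, the 5p or the 3p arm, can be loaded into Argonaute, where it guides repression of messenger RNAs. Plasma carries them in vesicles, in lipoproteins and bound to protein. Much of the plasma pool comes from blood cells and platelets, with contributions from liver, muscle, endothelium and epithelium. In endometriosis, tissue resembling the uterine lining grows outside the uterus, and the baboon is used as a model because it menstruates and develops peritoneal lesions after inoculation. In bulk plasma, fewer cells of a type and less RNA released per cell cannot be told apart.

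The month 15 libraries held 885587 to 3923510 counts (median 1887462) and the month 0 libraries held 696873 to 2251643 (median 1315968). Levels are given as TMM-scaled CPM, in which each library total is multiplied by a TMM factor, so a level is not a share of the library's own counts. A microRNA with no count in a library could still have had 3 counts, or 0.725 to 2.67 CPM on that scale at month 15 and 1.41 to 3.81 CPM at month 0; these floors cover counting error only. Total counts were higher at month 15 in 7 of 8 baboons, by a mean of 0.69 ± 0.91 on the log2 scale (SD, n = 8; exact two-sided sign-flip test p = 0.0625). Adjusted over the 9 measures tested on whole libraries, this p was 0.141, and the smallest p that 8 pairs allow is 0.0078. PA8915 was the baboon whose total was lower at month 15, with a log2 difference of -0.87. The month 15 library of PA8872 stood apart in red cell content. Its haemolysis index, the log2 CPM of the red cell microRNA miR-451a minus that of miR-23a-3p/23b-3p, differed by -4.83 from the month 0 index of the same baboon, while the other 7 differences lay between -1.04 and 0.34.

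At month 15, 13 of 318 microRNA rows (4.09%) passed an adjusted p of 0.05 against month 0 in edgeR's quasi-likelihood test, paired by baboon. Of these, 8 rose (2.52% of rows tested) and 5 fell (1.57%). The rises were led by miR-210-3p, which responds to low oxygen, and miR-30e-5p, and they included miR-126-3p of endothelium and platelets and miR-223-5p of myeloid cells. The falls were miR-34c-5p of ciliated epithelium, miR-100-5p, miR-671-5p and the lymphocyte microRNAs miR-181a-5p and miR-342-3p. Most changes were modest: the fitted fold of the 8 rises lay between 1.58 and 2.53, and 4 of the 5 falls left between 0.448 and 0.636 of the month 0 level.

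**Figure D1:**
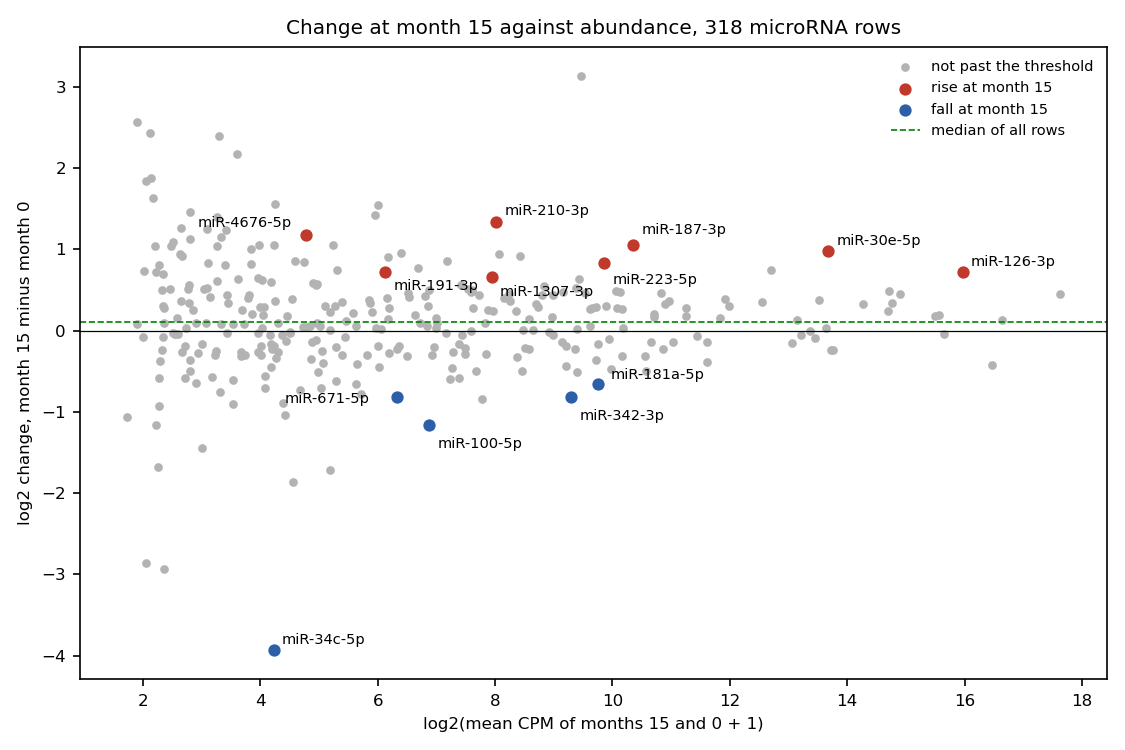
Log2 change at month 15 against month 0 (vertical axis) over log2(mean CPM + 1) of the 16 libraries (horizontal axis) for 318 microRNA rows. The 8 rises (red) and 5 falls (blue) lie mostly at middle to high abundance, where the scatter of the grey points is narrower; the dashed line is the median of all rows, 0.11.

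Over all rows tested, 189 had a fitted log2 change above 0 and 129 below 0. The median was 0.11 with TMM scaling, against 0.001 with the size factors of DESeq2, 0.04 with library totals and -0.01 with upper-quartile factors, so values below are best read against a shift of about that size. The quartiles of the rows were -0.23 and 0.47. Ranked by abundance and divided into 3 sets of 106 rows, 0 rows passed the test in the lowest set, 5 in the middle set and 8 in the highest. The median SE of the log2 change was 0.81 in the lowest set, 0.35 in the middle set and 0.24 in the highest set, so the comparison could resolve far smaller changes in abundant microRNAs.

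miR-210-3p is the microRNA most widely known as a target of hypoxia-inducible factor, and it represses the iron-sulphur scaffold ISCU in human cells. Its level was 226 to 487 CPM (median 368) at month 15 and 91.3 to 194 CPM (median 162) at month 0. All 8 month 15 libraries were above all 8 month 0 libraries, and miR-210-3p was the only 1 of the 318 rows whose groups did not overlap. The log2 change was 1.34 (SE 0.24, adjusted p = 0.000958), with the widest within-baboon gaps in PA8001 (2.28) and PA8835 (2.00) and the narrowest in PA8915 (0.22). The other arm, miR-210-5p, was too low to be tested, with 67 counts in 6 libraries at month 15 and 19 counts in 5 libraries at month 0. Without the month 15 library of PA8872 the log2 change of miR-210-3p was 1.32 (adjusted p = 0.000291).

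miR-30e-5p comes from an intron of NFYC in humans, beside miR-30c-1. It was 1 of the abundant plasma microRNAs, at 12356 to 24052 CPM (median 15726) at month 15 and 2780 to 12534 CPM (median 9201) at month 0. The month 15 level was higher in 8 of 8 baboons, and the ranges overlapped in that the month 0 library of PA8915 lay above the lowest month 15 library, that of PA8835. The log2 change was 0.98 (SE 0.21, adjusted p = 0.00715). The 3p arm of the same hairpin changed by 0.16 (SE 0.18, adjusted p = 0.733), and the log2 ratio of the 5p to the 3p arm had a median of 3.41 at month 15 and 2.65 at month 0, higher in 7 of 8 baboons. miR-30c-1-3p, the neighbour in the same intron, changed by 0.22 (SE 0.25, adjusted p = 0.729). Among 5p relatives with the same seed, the log2 change was 0.13 (SE 0.15) for miR-30d-5p, 0.44 (SE 0.52) for the joined row miR-30b-5p/30c-5p and -0.14 (SE 0.26) for miR-30a-5p, and none of them passed the test. How the counting treated near-identical members such as miR-30a-5p and miR-30e-5p is not given in the sources used here, so the division of reads between them is uncertain.

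The largest fitted change was that of miR-34c-5p, a target of p53 that is abundant in ciliated epithelium and testis. It had 0 to 4.85 CPM (median 1.44) at month 15 and 0 to 146 CPM (median 19.8) at month 0. The counts behind these levels were 0, 4, 9, 0, 5, 5, 0 and 5 at month 15, against 0, 36, 57, 13, 10, 298, 4 and 62 at month 0, in baboons PA8001, PA8003, PA8835, PA8872, PA8873, PA8912, PA8914 and PA8915. It was lower at month 15 in 7 of 8 baboons and at 0 at both times in PA8001. The log2 change was -3.93 (SE 0.90, adjusted p = 0.0118) in the fit of all 40 libraries. With only the libraries of months 15 and 0 in the fit, miR-34c-5p was below the low-count filter and was not tested. PA8912 held 298 of the 480 counts at month 0; without that baboon the log2 change was -3.08 and the call was lost (adjusted p = 0.0995).

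Most other products of the miR-34b/34c hairpin cluster were too scarce to be tested. miR-34b-5p was below the filter, with 0 counts in all 8 month 15 libraries and 87 counts at month 0, of which 55 were in PA8912, 13 in PA8835, 12 in PA8003 and 7 in PA8915. When no filter on low counts was applied it passed the test (adjusted p = 0.00951); its fitted fold is not given because month 15 was at 0 throughout. miR-34c-3p had 0 counts at month 15 and 10 at month 0, all in PA8915, and miR-34b-3p had 2 counts at month 15 and 0 at month 0. miR-34a-5p, which shares the seed of miR-34c-5p but is made from a separate gene, had 378 to 1590 CPM (median 703) at month 15 and 351 to 1318 CPM (median 637) at month 0, with a log2 change of 0.26 (SE 0.27, adjusted p = 0.697). The miR-449 row, another seed relative of ciliated cells, had 50.6 to 299 CPM (median 95.7) at month 15 and 82.5 to 394 CPM (median 148) at month 0, lower in 7 of 8 baboons, with a log2 change of -0.60 that missed the threshold (adjusted p = 0.0792).

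Of the epithelial list, 10 of 15 rows were tested; 2 had a log2 change above 0 and 8 below, 1 fell (miR-34c-5p), and the median was -0.63. Over all 318 rows, 129 were below 0 and 1.57% fell. With each of the other 3 scalings all 10 were below 0. miR-200a-3p, a repressor of the epithelial-mesenchymal switch genes ZEB1 and ZEB2, had 1.92 to 31.1 CPM (median 7.43) at month 15 and 2.00 to 109 CPM (median 22.8) at month 0, lower in 7 of 8 baboons (log2 change -1.87, SE 0.62, adjusted p = 0.0806). PA8912, which also held most month 0 counts of miR-34c-5p, held 223 of the 439 month 0 counts of miR-200a-3p. Without that baboon the log2 change of miR-200a-3p was -1.46 (adjusted p = 0.386). The untested miR-200b-3p had 0 counts at month 15 and 20 at month 0. miR-200c-3p and miR-141-3p, of the second miR-200 cluster, had log2 changes of -0.25 and 0.01, and that of miR-141-3p was below 0 under the other 3 scalings. Levels of the low epithelial members are close to the floors given above in many libraries. With TMM scaling the direction was not uniform, as miR-141-3p (0.01) and miR-31-5p (0.05) were above 0, though below the all-row median of 0.11.

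**Figure D2:**
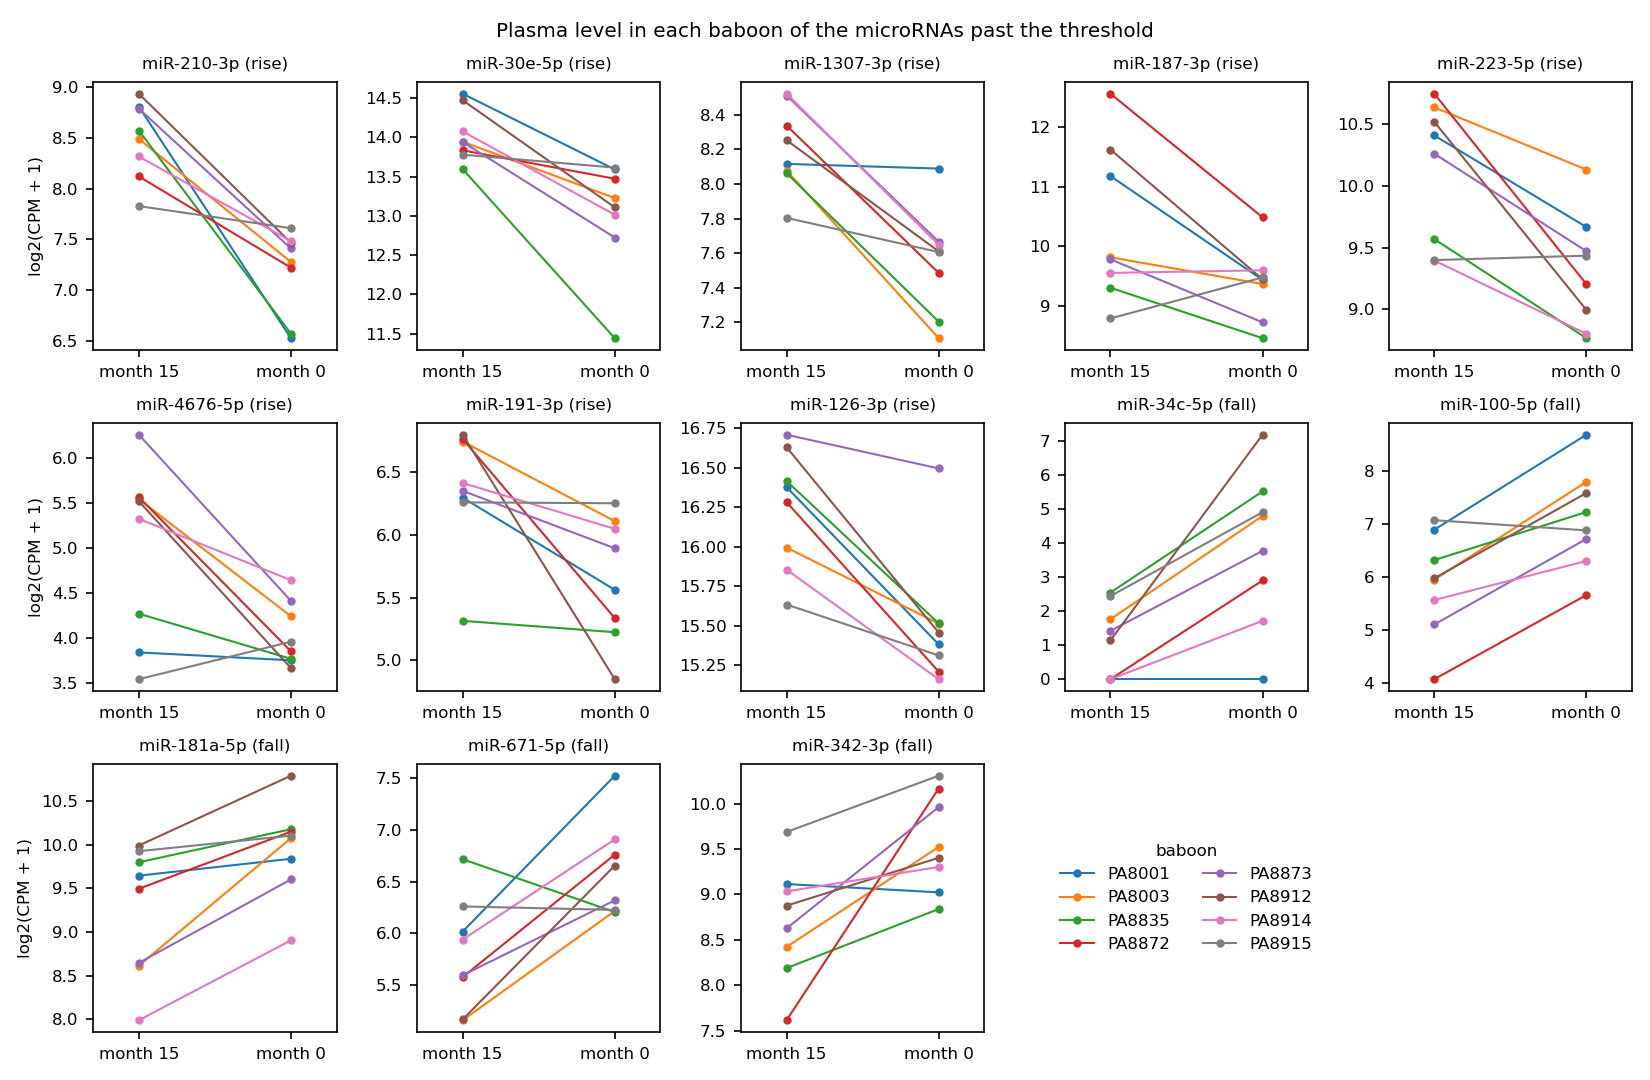
Plasma level as log2(CPM + 1) of the 13 microRNAs past the threshold, month 15 at the left and month 0 at the right of each panel, with a line for each of the 8 baboons. miR-210-3p separates the times in all 8 animals, miR-34c-5p is near 0 at month 15, and the line of PA8915 (grey) is flat or reversed in several panels.

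Among the rises were microRNAs of blood cells and platelets. miR-126-3p, from an intron of EGFL7 and abundant in endothelium and platelets, had 50913 to 107196 CPM (median 82480) at month 15 and 36694 to 92465 CPM (median 43888) at month 0. It was higher in 8 of 8 baboons, and PA8873 held the high month 0 value. The log2 change was 0.72 (SE 0.21, adjusted p = 0.0448), and that of the other arm, miR-126-5p, was 0.45 (SE 0.24, adjusted p = 0.399). In the month 15 library of PA8872 miR-126-3p was the most abundant microRNA, with 11.3% of counts, which was so in no other of the 16 libraries.

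miR-223-5p, the minor arm of a hairpin that is abundant in neutrophils and monocytes, had 672 to 1719 CPM (median 1293) at month 15 and 434 to 1122 CPM (median 639) at month 0. It was higher in 7 of 8 baboons, with overlap from PA8003, whose month 0 level was high, and from low month 15 levels in PA8914, PA8915 and PA8835. The log2 change was 0.83 (SE 0.24, adjusted p = 0.0434). The major arm, miR-223-3p, was also higher in 7 of 8 baboons, at 4223 to 14033 CPM (median 9151) at month 15 and 2372 to 6225 CPM (median 5096) at month 0, but its log2 change of 0.74 (SE 0.31) did not pass (adjusted p = 0.275). The log2 ratio of the 5p to the 3p arm had a median of -2.82 at month 15 and -2.99 at month 0, so the arms kept nearly the same proportion.

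miR-191-3p had 38.8 to 110 CPM (median 82.5) at month 15 and 27.9 to 75.3 CPM (median 52.4) at month 0. It was higher in 8 of 8 baboons, but by 0.01 on the log2 scale in PA8915 and 0.09 in PA8835 (fitted log2 change 0.73, SE 0.21, adjusted p = 0.0448). Its abundant partner arm miR-191-5p, at a median of 26704 CPM at month 15 and 17952 CPM at month 0, changed by 0.49 (SE 0.28, adjusted p = 0.495). miR-425, which shares a primary transcript with miR-191 in humans, had log2 changes of 0.48 for the 3p arm (SE 0.16, adjusted p = 0.0806) and 0.27 for the 5p arm (SE 0.24, adjusted p = 0.629).

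miR-187-3p, which restrains inflammatory cytokine production in human monocytes, had 441 to 6063 CPM (median 891) at month 15 and 351 to 1436 CPM (median 695) at month 0. The groups overlapped widely, and the highest level at both times was in PA8872. It was higher in 6 of 8 baboons, by about 2 on the log2 scale in PA8872 (2.08) and PA8912 (2.18), with a difference of -0.69 in PA8915 (fitted log2 change 1.05, SE 0.29, adjusted p = 0.0348). Without the month 15 library of PA8872 its log2 change was 0.84 and the call was lost (adjusted p = 0.0889).

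miR-1307-3p had 222 to 367 CPM (median 290) at month 15 and 137 to 271 CPM (median 194) at month 0. It was higher in 8 of 8 baboons, by 0.03 in PA8001 and by 0.20 to 0.97 in the other 7 (fitted log2 change 0.66, SE 0.16, adjusted p = 0.0192). Its 5p arm was scarce and changed by -0.25 (SE 0.83). miR-4676-5p had 10.7 to 75.6 CPM (median 42.0) at month 15 and 11.7 to 24.0 CPM (median 14.0) at month 0, higher in 7 of 8 baboons (log2 change 1.17, SE 0.34, adjusted p = 0.0448). The month 0 libraries lay in a narrow band and the spread was at month 15.

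The other falls included microRNAs of lymphocytes and of stroma. miR-181a-5p, which tunes T cell receptor sensitivity in mouse thymocytes, had 253 to 1016 CPM (median 760) at month 15 and 478 to 1769 CPM (median 1088) at month 0. The groups overlapped, yet it was lower in 8 of 8 baboons, with log2 differences between -1.46 in PA8003 and -0.18 in PA8915. The fitted log2 change was -0.65 (SE 0.18, adjusted p = 0.0348). The relative miR-181b-5p changed by -0.49 (SE 0.20, adjusted p = 0.275) and was lower in 5 of 8 baboons. Of the opposite arms, miR-181a-3p changed by 0.04 (SE 0.32) and miR-181a-2-3p by -0.41 (SE 0.21, adjusted p = 0.399).

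miR-342-3p, from an intron of EVL and abundant in lymphocytes, had 195 to 823 CPM (median 431) at month 15 and 457 to 1266 CPM (median 705) at month 0. It was lower in 7 of 8 baboons, most in PA8872 (-2.55), and slightly higher in PA8001 (0.09). The fitted log2 change was -0.81 (SE 0.24, adjusted p = 0.0448), and the scarce 5p arm changed by -0.76 (SE 0.71, adjusted p = 0.664). miR-342-3p has been reported as raised in the serum of women with endometriosis, together with miR-125b-5p, miR-150-5p and miR-451a. In these baboons the log2 changes of those other 3 were -0.33 (SE 0.31), -0.31 (SE 0.40) and -0.31 (SE 0.43), none past the test. The 2 microRNAs of the same human panel reported as lowered, miR-3613-5p and let-7b-5p, changed by 0.30 (SE 0.37) and -0.05 (SE 0.20). The baboon values compare 2 times in plasma of the same animals, with no group left without inoculation. With the haemolysis index as a covariate the panel's median went from -0.31 to -0.06, with 3 of 6 rows above 0. That index is itself built in part from miR-451a.

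miR-100-5p, which represses the growth kinase mTOR, had 15.7 to 133 CPM (median 61.2) at month 15 and 49.4 to 411 CPM (median 133) at month 0. It was lower in 7 of 8 baboons and higher by 0.19 in PA8915 (fitted log2 change -1.16, SE 0.30, adjusted p = 0.0343). miR-99a-5p, a near-identical relative between which reads may be divided, had 38.1 to 252 CPM (median 164) at month 15 and 105 to 568 CPM (median 273) at month 0. It was lower in 6 of 8 baboons, with a log2 change of -0.85 that missed the threshold (SE 0.27, adjusted p = 0.0712). Of other rows in the endothelial and stromal list, miR-143-3p changed by -0.16 (SE 0.36) and miR-145-5p by 0.03 (SE 0.47).

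miR-671-5p, which directs cleavage of the circular RNA CDR1as, had 34.8 to 104 CPM (median 53.9) at month 15 and 72.8 to 183 CPM (median 89.2) at month 0. It was lower in 6 of 8 baboons; PA8835 was higher by 0.51 and PA8915 by 0.03. The fitted log2 change was -0.81 (SE 0.22, adjusted p = 0.0348), and that of miR-671-3p was -0.23 (SE 0.30).

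The 7 rows next by p did not pass. Besides those already given, miR-221-3p had a log2 change of 0.86 (adjusted p = 0.0792), miR-331-3p of 1.42 (adjusted p = 0.0806) and the joined row miR-1185-1-3p/1185-2-3p of 2.17 (adjusted p = 0.149), each higher in 7 of 8 baboons. miR-331-3p had 16.3 to 234 CPM (median 70.9) at month 15 and 9.73 to 106 CPM (median 21.0) at month 0, so its ranges overlapped.

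The size of the change between month 0 and month 15 differed between animals. Of the 13 called microRNAs, all 13 had the called direction in PA8003, PA8872, PA8873 and PA8912, 12 in PA8835 and PA8914, 11 in PA8001 and 8 in PA8915. In the called direction, the median log2 difference of the 13 was 0.16 in PA8915 and 0.74 to 1.48 in the other 7. Since the 13 were called from these same animals, these counts describe the spread and are no test. PA8915 was also the baboon with the lower total count at month 15 and with 38 fewer rows counted; the part of depth in this was not tested. With PA8915 left out, 20 microRNAs passed, 12 rises and 8 falls, and all 13 were among them.

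**Figure D3:**
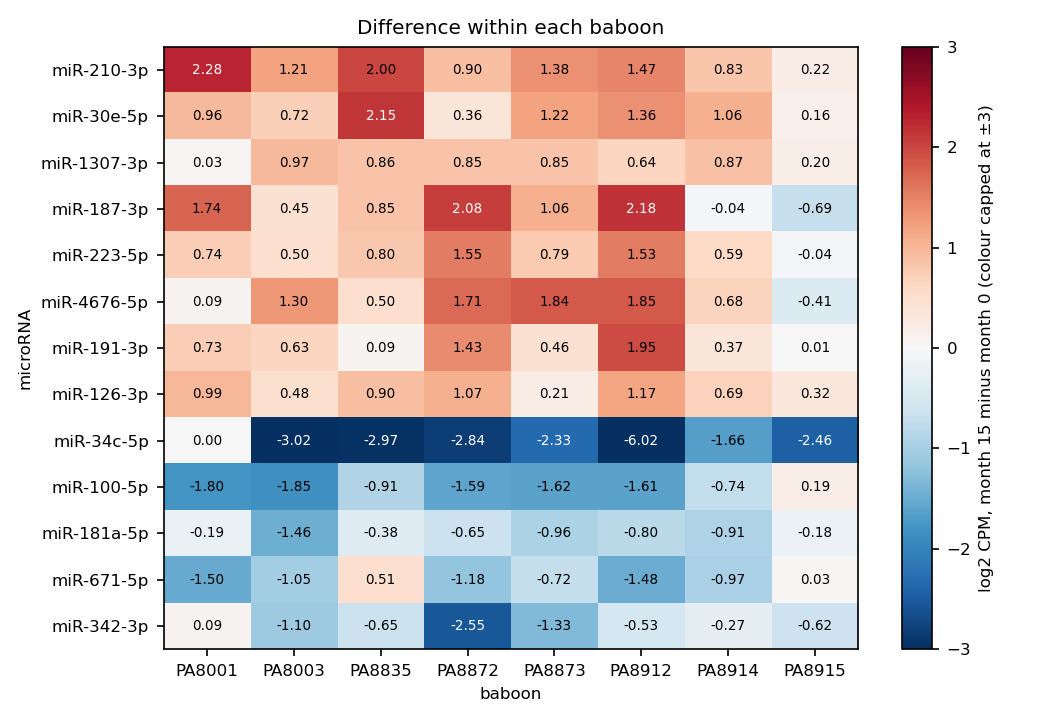
Log2 CPM at month 15 minus month 0 (colour and number, with a prior count of 2) for the 13 called microRNAs (rows) in each of the 8 baboons (columns). The column of PA8915 is pale, with a median of 0.16 in the called direction, and miR-34c-5p ranges from 0 in PA8001 to -6.02 in PA8912.

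The count of calls differed with the scaling, the pairing, the libraries in the fit and single animals. Scaled by the factors of DESeq2, 4 rises and 6 falls passed. The counts were 2 and 7 by upper quartiles, and 2 and 2 by library totals. The rises miR-126-3p, miR-223-5p, miR-191-3p and miR-4676-5p passed under none of these scalings. miR-210-3p and miR-30e-5p passed under each of them. With only the 16 libraries of months 15 and 0 in the fit, which tested 265 rows, no row passed: 27 rows had an unadjusted p below 0.05 and the smallest adjusted p was 0.0571, for miR-210-3p and miR-100-5p. In the fit of all 40 libraries 40 rows had an unadjusted p below 0.05. The DESeq2 Wald test called 19 rows and limma-voom 13 in the same 40 libraries. Among the other baboons, the count was 2 with PA8912 left out, 3 with PA8872, 4 with PA8003 or PA8835, 5 with PA8873, 6 with PA8914 and 7 with PA8001 left out. Without the month 15 library of PA8872 alone, 4 rows passed: miR-210-3p, miR-30e-5p, miR-34c-5p and miR-181a-5p. With the haemolysis index as a covariate 3 passed (miR-210-3p, miR-30e-5p and miR-34c-5p), and with the log2 total count as a covariate 2 passed (miR-210-3p, log2 change 1.12, and miR-30e-5p, 0.92).

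The course between the 2 times was followed in the same fit, in which months 3, 6, 9 and 15 share the month 0 libraries. For miR-210-3p the log2 change from month 0 was 0.57 (SE 0.24) at month 3, 0.74 (SE 0.24) at month 6, 0.78 (SE 0.24) at month 9 and 1.34 at month 15. miR-30e-5p had 0.15, 0.19, 0.58 and 0.98 at the same months, and miR-181a-5p had -0.14, -0.28, -0.51 and -0.65. miR-34c-5p stood at -0.39, -0.69 and -0.21 at months 3, 6 and 9, each with an SE above 0.8, and at -3.93 at month 15. miR-223-5p and miR-191-3p were at 0.00 and -0.04 at month 9 and at 0.83 and 0.73 at month 15, and miR-100-5p was at 0.37 at month 9 and at -1.16 at month 15. None of the 13 passed the test at months 3, 6 or 9.

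Month 15 was also tested against the mean of months 3, 6 and 9, a contrast without the month 0 libraries. In it 2 of 318 rows passed (0.629%), and 34 had an unadjusted p below 0.05. miR-30e-5p was higher at month 15 by 0.67 (SE 0.16, adjusted p = 0.0387), with a median level of 15726 CPM at month 15, against 10347, 10107 and 13088 CPM at months 3, 6 and 9. miR-34c-5p was lower at month 15 (log2 difference -3.50, SE 0.81, adjusted p = 0.0387), with a median of 1.44 CPM at month 15, against 21.8, 6.84 and 13.1 CPM. For the other 11 called microRNAs this difference did not pass; it was 0.64 for miR-210-3p (SE 0.19, adjusted p = 0.0805) and -1.01 for miR-100-5p (SE 0.26, adjusted p = 0.0510).

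**Figure D4:**
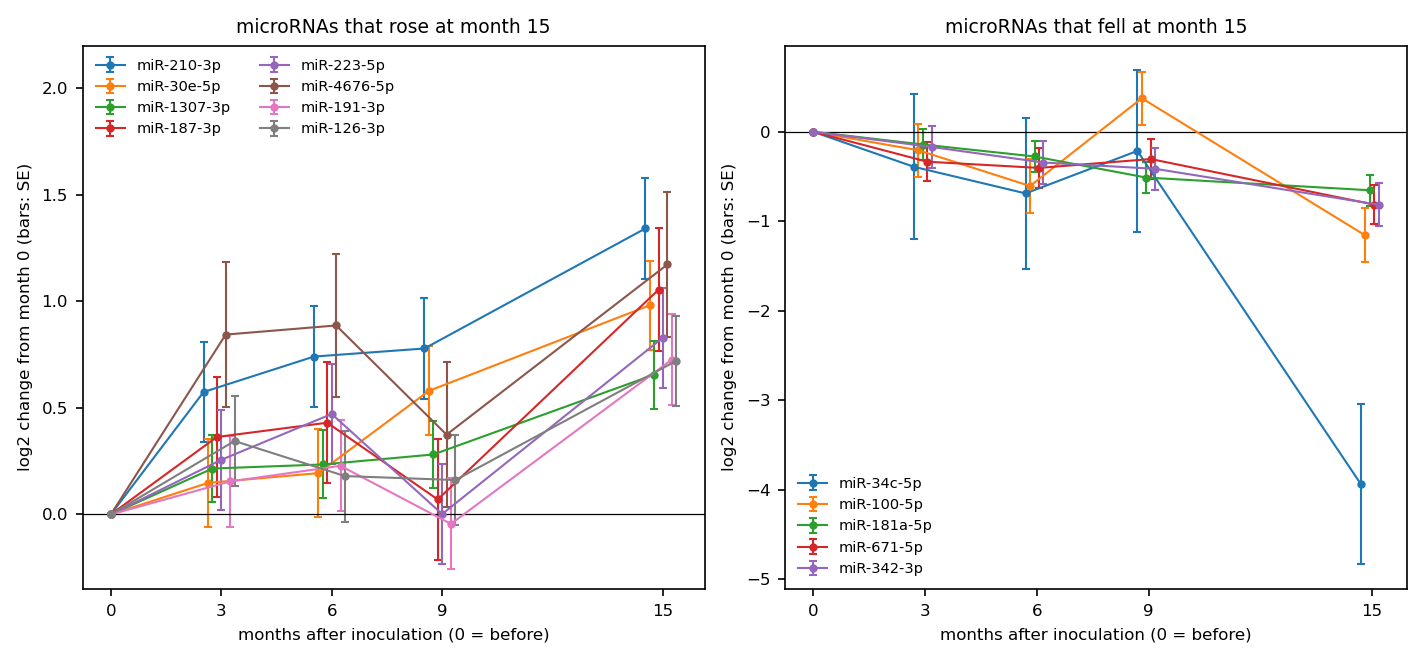
Log2 change from month 0 (vertical axis, bars are SE from the fit) over months after inoculation (horizontal axis; points are set slightly apart) for the 8 microRNAs that rose and the 5 that fell at month 15. All changes share the month 0 libraries; miR-34c-5p stays between -0.69 and -0.21 through month 9 and is at -3.93 at month 15.

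Source and cluster lists were read by their counts and medians beside those of all 318 rows, of which 189 were above 0 and 129 below, 2.52% rose and 1.57% fell, with a median of 0.11. Of 12 platelet rows, 10 were above 0 and 2 below, 1 rose (miR-126-3p) and the median was 0.39. Of 10 myeloid rows, 8 were above 0 and 2 below, 1 rose (miR-223-5p) and the median was 0.41. The summed level of the platelet list was 109655 to 215994 CPM at month 15 and 83821 to 153519 CPM at month 0, higher in 7 of 8 baboons by a mean of 0.57 ± 0.44 (log2, SD, n = 8; exact sign-flip p = 0.0156, 0.141 adjusted over 9 measures). That of the myeloid list was 14650 to 30557 CPM at month 15 and 11028 to 19738 CPM at month 0, also higher in 7 of 8 (mean 0.48 ± 0.55; exact sign-flip p = 0.0469, adjusted 0.141). The largest parts of the platelet sum were miR-126-3p, miR-126-5p and miR-191-5p, with means of 64124, 30520 and 26852 CPM over both times. miR-126-3p was itself called from these libraries, so the platelet p is not separate from that call. Among the list rows, miR-24-3p was counted in 2 month 15 libraries and 1 month 0 library and was at 0 in the others. Its fitted value therefore carries an SE of 3.73.

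Lymphocyte rows lay on the other side: 4 of 14 were above 0 and 10 below (129 of 318 below among all rows), 2 fell (1.57% of all rows) and the median was -0.29. Of 15 endothelial and stromal rows, 4 were above 0 and 11 below, 1 fell (miR-100-5p) and the median was -0.30. The exceptions included miR-221-3p (0.86) and miR-222-3p (1.01), which are made from a single transcript in humans and target the cell cycle inhibitor p27. The arms of miR-126, also of endothelium, were placed in the platelet list and are not among these 15 rows (miR-126-3p 0.72, miR-126-5p 0.45). Relative to the median of all rows, the platelet and myeloid medians lay at 0.25 to 0.31 and the lymphocyte and stromal medians at -0.41 to -0.39 under the 4 scalings tried. With the haemolysis index as a covariate these medians relative to all rows were 0.13 for platelet, 0.12 for myeloid, -0.30 for lymphocyte and -0.38 for stromal rows.

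No red cell row passed. Of 10 red cell rows, 3 were above 0 and 7 below, with a median of -0.23, and with the haemolysis index as a covariate the median was 0.05 with 7 above 0. miR-451a had 286 to 2966 CPM (median 1060) at month 15 and 475 to 5978 CPM (median 922) at month 0. The haemolysis index averaged -0.82 ± 1.47 at month 15 and 0.01 ± 1.06 at month 0 (SD, n = 8), a mean difference of -0.83 (exact sign-flip p = 0.0938, adjusted 0.169) of which PA8872 gave the most. The index is itself built from miR-451a of the red cell list (log2 change -0.31) and miR-23a-3p/23b-3p of the myeloid list (0.46). A difference in the index can come from either row, and shifts of those lists under the covariate are partly built in. The part of red cell content in the platelet, myeloid and lymphocyte values was not tested beyond that covariate.

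The DLK1-DIO3 cluster, an imprinted locus that encodes many microRNAs on human chromosome 14, had 27 of 30 tested rows above 0 and a median of 0.46, with no row past the test. With the size factors of DESeq2, 22 of 30 were above 0. Relative to all rows the cluster's median was 0.36, and 0.14 with the haemolysis index as a covariate. miR-127-3p had 108 to 973 CPM (median 241) at month 15 and 100.1 to 312 CPM (median 136) at month 0 and was higher in 5 of 8 baboons (log2 change 0.94, adjusted p = 0.212). The median of the cluster's rows was above 0 in 4 of 8 baboons. The let-7 family had 7 of 8 rows above 0 (median 0.24; 6 of 8 under the other scalings), and the miR-17 clusters 6 of 9 (median 0.24).

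Liver, muscle and neural lists gave no call. Of 8 liver rows 2 were above 0, with a median of -0.19. miR-122-5p, which hepatocytes make in great amounts, had 3305 to 219469 CPM (median 51541) at month 15 and 7957 to 694211 CPM (median 27826) at month 0, higher in 4 of 8 baboons, and the highest level was that of PA8001 at month 0, where it took 52.9% of counts. Muscle had 1 of 6 rows above 0 (median -0.13) and neural microRNAs 3 of 6 (median -0.05). Of 10 hypoxia and fibrosis rows, 4 were above 0, 1 rose (miR-210-3p) and the median was -0.15; miR-21-5p was at -0.14 (SE 0.18) and miR-29c-3p at 0.03 (SE 0.25). No placental C19MC row was tested: miR-518b and miR-1323 had 6 counts each at month 15 and 0 at month 0, and the other 12 rows of that list had no count.

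**Figure D5:**
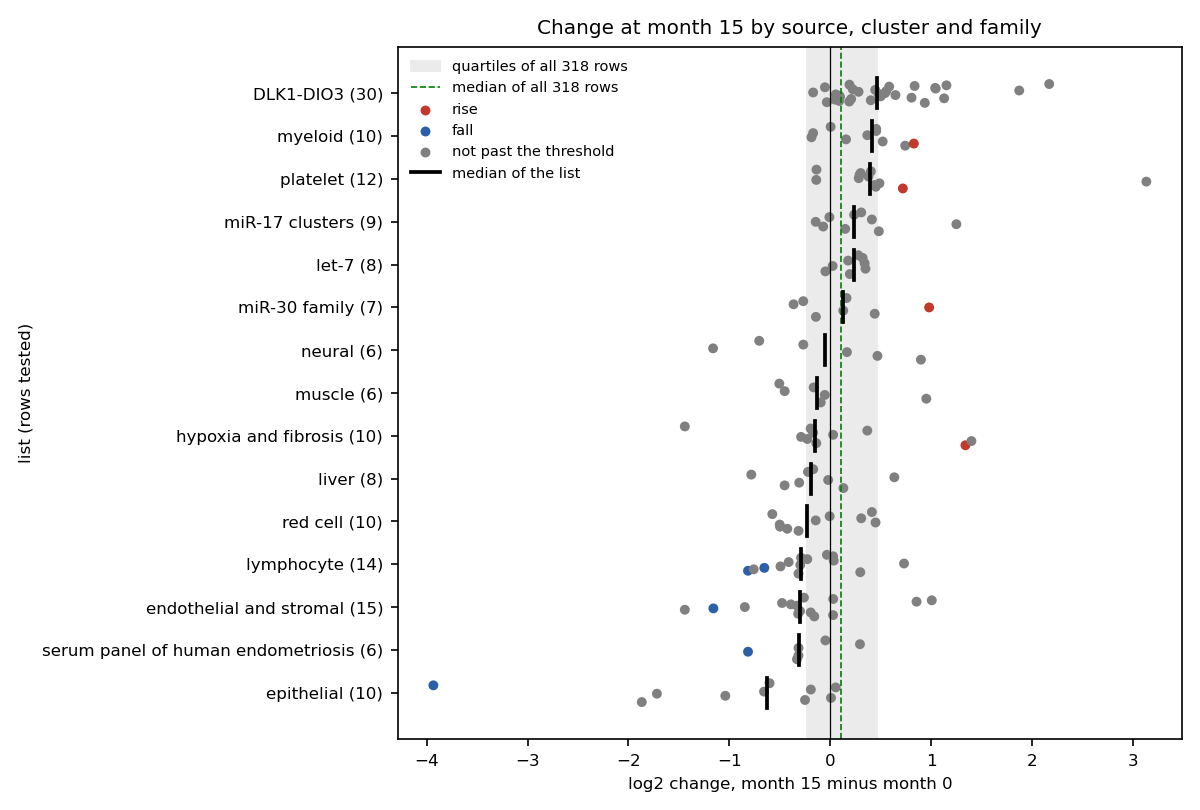
Log2 change at month 15 against month 0 (horizontal axis) of the tested rows of each list (vertical axis, number tested in brackets), with the list median as a black bar. The grey band runs between the quartiles of all 318 rows, -0.23 to 0.47; the DLK1-DIO3, myeloid and platelet medians lie at 0.39 to 0.46 and the epithelial median at -0.63.

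Both arms were tested for 68 hairpins, and in 49 of them (72.1%) the 5p and 3p rows had the same sign. Arms share a precursor and a library, so this is a description. In 9 hairpins an arm was called; the other arm had the same sign in 7 of them and was itself called in 0. The exceptions were miR-181a and miR-1307, whose other arms were scarce. For miR-181a the pair was made with miR-181a-3p, and miR-181a-2-3p, which changed by -0.41, was left unpaired.

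The same few microRNAs dominated plasma at both times. The 10 rows with the highest mean at month 15 were miR-16-5p, miR-126-3p, miR-486-5p, miR-122-5p, let-7a-5p/7c-5p, let-7b-5p, let-7g-5p, miR-126-5p, miR-191-5p and let-7f-5p. Together they took 62.5 to 81.9% of counts (median 71.0%) at month 15 and 59.4 to 82.5% (median 71.2%) at month 0. miR-16-5p had 69183 to 500315 CPM (median 212384) at month 15 and 102194 to 323289 CPM (median 158567) at month 0, higher in 7 of 8 baboons (log2 change 0.45, SE 0.26, adjusted p = 0.495). miR-486-5p, also of red cells, had a log2 change of -0.43 (SE 0.31, adjusted p = 0.573).

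At the low end, 93 rows were counted at month 15 alone and 51 at month 0 alone. By the rule of a count in at least 6 of 8 libraries at one time and at most 2 of 8 at the other, 5 rows stood out, all at month 15, and none reached the filter. miR-26b-3p was counted in 7 libraries at month 15 (71 counts) and in 0 at month 0, and let-7g-3p in 6 (46 counts) and in 0. Both are the minor arms of hairpins whose 5p arms are abundant. miR-23a-5p had 77 counts in 6 libraries at month 15 and 7 counts in 2 libraries at month 0, miR-6730-5p 63 counts in 6 and 10 counts in 1, and miR-4749-3p 47 counts in 6 and 4 counts in 2. With no filter on low counts, miR-26b-3p passed the test (adjusted p = 0.0327). The higher totals at month 15 move with these counts, and their part was not tested.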

How the data were processed

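The authors deposited raw whole-number counts, 1 row per mature microRNA name. Per the labels' protocols, adapters were ligated to both ends of the RNA and molecular identifiers were assigned at cDNA synthesis; whether the counts are of identifiers or of reads is not stated, so floors cover counting error only. Neither aligner nor microRNA database is named in the labels. Per the submitters' processing notes, R 4.5.0, edgeR and limma were used. Rows that join several names cannot be divided; 21 of the rows tested are joined.

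The filterByExpr rule with month as group (a count of at least 10, a total of at least 15) left 318 rows with 99.98% of counts. Counts of all 40 libraries were scaled with TMM factors and tested in 1 fit with month and baboon as terms in edgeR 4.0.16 under R 4.3.3, with limma 3.58.1, by the two-sided quasi-likelihood test, adjusted by Benjamini-Hochberg over 318 rows with a threshold of 0.05. Log CPM values use a prior count of 2. Each SE of a log2 change is its absolute value divided by the square root of the quasi-likelihood F statistic, so it is derived from the test. The fit was tested on simulated data. Alternatives also used DESeq2 1.42.0.

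Replicates are the 8 baboons, and the pairing comes from the same animal being bled at both times. After the month means were subtracted, profiles correlated across microRNAs by a mean of 0.20 between the paired libraries and -0.03 between libraries of different baboons. The paired values ran from -0.13 in PA8912 to 0.42 in PA8003. Without that subtraction, the own month 0 library was the closest of 8 for 4 baboons, and it ranked 7 for PA8001 and 6 for PA8912. No 2 libraries held identical values. Library measures were compared with exact sign-flip tests over 8 pairs.

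The comparison, lists and naming rule were chosen with earlier results of these data known, so no set test was run on the rows of a list. The sign-flip p of the summed platelet and myeloid levels is subject to the same choice. Named are all called rows, the next rows by p up to 20 in all, other arms and relatives of called rows, the 10 most abundant rows at month 15, up to 3 rows of each list by smallest p, haemolysis and liver markers and rows of the presence rule; other list members that are named were chosen after their values were seen.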

Additional observations from a re-analysis of the deposited data

Results flagged for a closer look

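In PA8872, 3 measures of the library lay far from those of the other 7 baboons. The difference in haemolysis index between month 15 and month 0 was -4.83, that in log2 CPM of miR-16-5p was -1.48, and that in the log2 summed CPM of the red cell list was -1.59. In all, 22 sets of 8 differences were examined and 3 held such a value; chance gives about 1 in 20, and the 3 measures share red cell microRNAs.

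miR-30e-5p and miR-34c-5p differed at month 15 from the mean of months 3, 6 and 9 by the contrast of the fit itself, with log2 differences of 0.67 and -3.50.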

How the results depend on the processing

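None of the 13 called microRNAs and the 7 next by p changed its sign under the 23 alternatives. Among the called, miR-210-3p passed in 22, miR-30e-5p in 21 and miR-34c-5p in 20 of the 22 in which it was tested. miR-181a-5p passed in 13, miR-342-3p in 12, miR-100-5p in 11, miR-671-5p in 9, miR-1307-3p in 8, miR-187-3p in 7, then miR-223-5p in 6, miR-126-3p and miR-4676-5p in 5 each and miR-191-3p in 4 of 23. Against 13 calls (8 rises, 5 falls), library totals alone gave 4 (2 and 2), and months 15 and 0 alone gave 0 (0 and 0), with fewer rows and samples. The haemolysis covariate gave 3 (2 and 1), the log2 total covariate 2 (2 and 0) and miR-122-5p taken out 8 (2 and 6). The next omissions were chosen after seeing the data: no month 15 library of PA8872 gave 4 (2 and 2) and no month 0 library of PA8001 gave 6 (3 and 3). The fit without the replicate block, so without pairing by baboon, gave 2 (1 and 1). Rises alone also moved with upper-quartile factors (2), no low-count filter (4) and DESeq2 size factors (4), and falls with the DESeq2 Wald test (9). Leaving out 1 baboon gave 2 to 20 calls, 2 to 12 rises and 0 to 8 falls. Against 2 calls for month 15 against the mean of months 3, 6 and 9, upper-quartile factors gave 1, library totals 6, no filter 9, the stricter filter (minimum count 50) 5, the DESeq2 Wald test 10, limma-voom 1, no replicate block 1, the haemolysis covariate 1, the log2 total covariate 0, no month 15 library of PA8872 1, and leaving out 1 baboon 0 to 11. The cause of these differences was not tested. The median SE was 0.81 in the lowest of the 3 abundance sets, so small changes of scarce rows were not detectable at this depth.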
